A study of Homo sapiens with 6 samples.

Results

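Amino acid transporters of the SLC7, SLC1 and SLC38 families were compared between 2 HEK293T landing pad lines by RNA-seq of polyadenylated RNA. The 10 genes are SLC7A1, SLC7A2, SLC7A3, SLC7A6, SLC1A3, SLC1A4, SLC1A5, SLC38A1, SLC38A2 and SLC38A5, out of 20169 genes with deposited counts. They were chosen by symbol, matched through their Ensembl identifiers, with earlier results of the same comparison known, so their differences between the lines are given as a description. HEK293T cells derive from human embryonic kidney and express the SV40 large T antigen. Each line is a single clone that holds a landing pad, a genomic docking site for inserted reporters, with either the PGK or the CAG promoter, and each gave 3 libraries. PGK is the promoter of a glycolytic gene and CAG a strong composite promoter. All cells were grown in DMEM with serum and antibiotics and collected before confluence. Promoter and clone cannot be told apart, and whether the 3 libraries of each clone were grown as separate cultures is not stated, so errors measure the spread between libraries, which may be technical. In bulk RNA, fewer cells that express a gene and less of its RNA per cell cannot be told apart either.

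The cationic amino acid transporters CAT1, CAT2 and CAT3, encoded by SLC7A1, SLC7A2 and SLC7A3, bring arginine, lysine and ornithine into the cell. SLC7A6 is a light chain that joins the heavy chain SLC3A2 and exchanges cationic for neutral amino acids with sodium. ASCT1 (SLC1A4) and ASCT2 (SLC1A5) exchange small neutral amino acids, the latter glutamine in particular, while their relative SLC1A3 takes up glutamate. SLC38A1, SLC38A2 and SLC38A5 are sodium-coupled carriers of glutamine and other neutral amino acids. When amino acids run short, the kinase GCN2 (EIF2AK4) raises translation of the transcription factor ATF4, which binds C/EBP-ATF response elements near genes of amino acid uptake and synthesis.

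Sequences that match this element are shown because 5 of the 8 members with a promoter window in the RefSeq table hold one. A window runs from 250 bases before to 50 bases after a RefSeq transcript start (build GRCh38.p14), and a gene can have several. The motif searched was TGATGNAA, on both strands. It was found in 5 of the 14 windows of the members and in 3.62% of all 35116 windows, or in 4.46% of 27305 genes. Among 10240 tested genes the share was 2.73%. Capitals mark the match, which reads as its reverse complement in SLC1A4, CHAC1 and SLC3A2, and each sequence is given 5′ to 3′ along the strand of its gene. ASNS, CEBPG, CHAC1 and SLC3A2 are not members and are shown for comparison. They were all called higher in CAG, which does not hold for every listed gene with a match. Among the other non-members in the lists of amino acid transport and use, MTHFD1L and JDP2 also held a match and were called higher. GOT1 held a match and was called lower, and ATF3, TSC2 and NEDD4L held a match and were not called.
SLC7A1 (chr13:29595665-29595690, minus strand): gcgcactgcTGATGAAAcctggcgcc
SLC1A4 (chr2:64989383-64989408, plus strand): ggctcccgtTTGCATCAtctccagcc
SLC1A5 (chr19:46784895-46784920, minus strand): ggaagtggcTGATGCAAgctgtccag
SLC1A3 (chr5:36596359-36596384, plus strand): ggaaatgacTGATGCAAagcagggtt
SLC38A1 (chr12:46266504-46266529, minus strand): agacccgaaTGATGAAAagggatcag
ASNS (chr7:97872460-97872485, minus strand): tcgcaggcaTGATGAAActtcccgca
CEBPG (chr19:33374062-33374087, plus strand): cgcggcgtcTGATGCAAcctgccggc
CHAC1 (chr15:40953253-40953278, plus strand): cccctgccgTTGCATCActcctgcca
SLC3A2 (chr11:62881727-62881748, plus strand): caggactccTTACATCAgctcc

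Counted from the transcript start as position 1, with no position 0, the match began at position 8 in SLC7A1, -7 in SLC1A4, -97 in SLC1A5, -220 in SLC1A3 and -4 in SLC38A1. The windows of SLC1A4, SLC1A5, SLC1A3 and SLC38A1 with a match were each 1 of several starts of the gene. Of the 5 genes with a match, SLC7A1, SLC1A4 and SLC1A5 were higher in the CAG line, while SLC1A3 and SLC38A1 were not called. SLC7A6, SLC38A2 and SLC38A5 have windows without these letters. SLC7A2 and SLC7A3 have no window in the RefSeq table and were not searched. The E-box CACGTG was present in 2 of the 8 members with a window, SLC1A5 and SLC38A5, against 8.78% of all genes and 12.8% of tested genes. The letters TGACNNNGC of an antioxidant response element were present in SLC1A3, SLC1A5, SLC7A1 and SLC7A6, against 16.1% of all and 19.3% of tested genes. CCAAT was present in SLC1A3, SLC1A4, SLC1A5 and SLC7A1, against 39.7% of all and 43.5% of tested genes. In 0 cases did matches of different motifs share a base in a member. A match is a run of letters in the reference, and binding was not measured.

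Total counts ran from 21896246 to 22889708 in the PGK libraries and from 22450538 to 23442542 in the CAG libraries. Levels are given as CPM, counts scaled to a common total, on library sizes scaled by TMM, a method that evens out differences in RNA composition. Among markers of the labelled cell type, vimentin (VIM), CDH2 and KRT18 lay above 50 CPM in both lines, PAX2 lay at 1.27 to 1.55 CPM, and PAX8 had at most 1 count. The epithelial genes EPCAM (0.0292 CPM in PGK and 1.12 in CAG) and KRT8 (1.09 and 5.35) were higher in CAG, and their part in the results below was not tested. Summed marker levels of immune cells (5 genes) were 2.72 to 3.55 CPM in PGK and 2.16 to 3.10 in CAG, and CD3E was at 0 counts. Those of astrocytes, which are rich in SLC1A3, were 0.539 to 0.701 and 0.890 to 1.33 CPM, with S100B at 0 counts. Hepatocyte and endothelial markers summed to under 1 CPM in every library, and ALB was at 0. Of 5 fibroblast markers, 4 lay under 1 CPM and COL1A2 was at 0 counts, with sums of 18.6 to 20.2 CPM in PGK and 22.4 to 22.8 in CAG that came almost wholly from COL1A1.

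Of the 10 members 9 had enough counts to be tested. In the quasi-likelihood test of edgeR, adjusted by Benjamini-Hochberg over 13103 genes and called at an adjusted p under 0.05, 4 were higher in CAG (SLC7A1, SLC7A3, SLC1A4 and SLC1A5), 2 were lower (SLC7A2 and SLC7A6) and 3 were not called (SLC1A3, SLC38A1 and SLC38A2). Among all tested genes 62.0% were called, 31.6% higher and 30.4% lower, so nothing is read from the members' count. The median log2 fold change of the 9 was 0.01, against -0.0021 over all tested genes. Libraries of the lines did not overlap for 7 of the 9, against 65.5% of all tested genes.

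**Figure D1:**
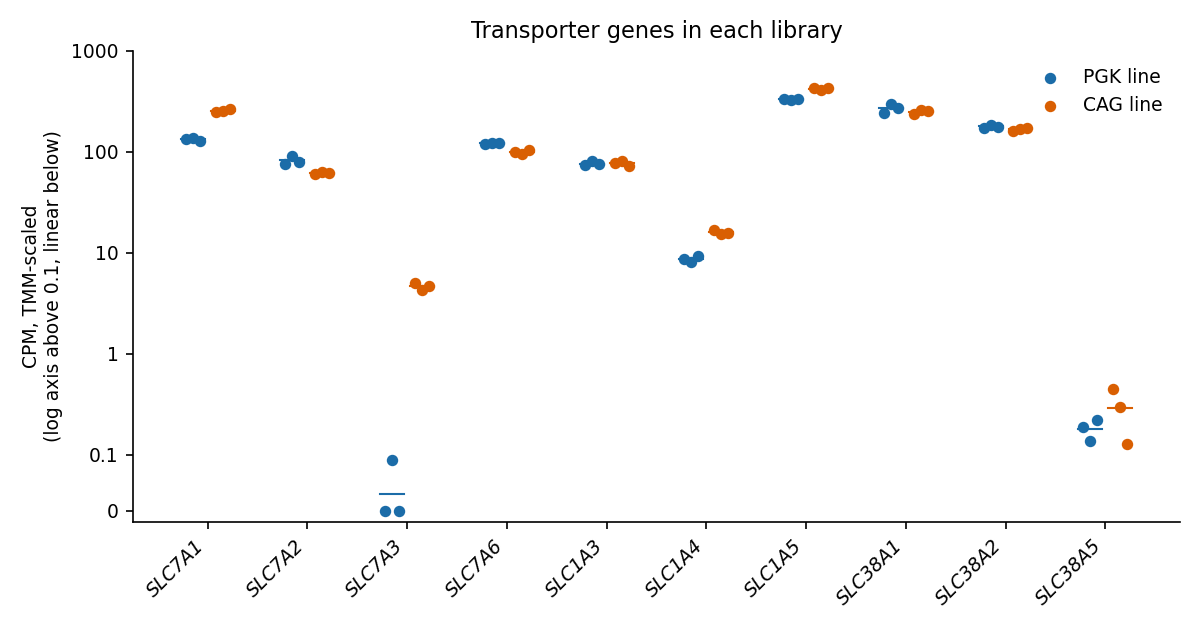
Level of each transporter gene in each library (points) with the mean of the line (bar), in CPM on an axis that is logarithmic above 0.1 and linear below. SLC7A3 lies at 0 to 0.0899 CPM in the PGK line and at 4.28 to 5.01 in the CAG line, while SLC1A3 overlaps between the lines.

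The 3 cationic transporters differed in 3 ways. SLC7A1 (ENSG00000139514, chromosome 13), the widely expressed CAT1, was at 134.7, 137.5 and 128.1 CPM in PGK replicates 1 to 3 and at 247.4, 250.8 and 265.0 CPM in CAG. Every CAG library lay above every PGK library, with means of 133.5 ± 4.84 and 254.4 ± 9.35 CPM (SD, n = 3). The log2 fold change, CAG over PGK, was 0.93 (SE 0.05), or 1.91-fold. SLC7A2 (ENSG00000003989, chromosome 8), the inducible CAT2, was at 76.2, 91.6 and 79.2 CPM in PGK and at 59.9, 62.8 and 62.1 CPM in CAG. All CAG libraries lay below all PGK libraries, with a log2 fold change of -0.42 (SE 0.06) and the highest value in PGK replicate 2.

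SLC7A3 (ENSG00000165349, X chromosome), which encodes CAT3, a transporter known mainly from brain and early development, was nearly silent in the PGK line. Its counts were 0, 2 and 0 in PGK replicates 1 to 3 and 113, 101 and 112 in CAG. In CPM this was 0, 0.0899 and 0 against 5.01, 4.28 and 4.70. The CAG to PGK ratio was 155 with a 95% exact counting interval of 42.6 to 1285. Both PGK counts came from replicate 2. Without that library PGK was at 0 counts, and against a floor of 3 counts per library SLC7A3 was at least 34.4-fold higher in CAG. Without PGK replicate 3 the ratio was 101.8. Its fitted log2 fold change ranked 17th among the 13103 tested genes from the top. Such intervals and floors hold counting error alone, because PCR copies of a molecule are not independent.

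SLC7A6 (ENSG00000103064, chromosome 16), the system y+L light chain, was at 119.2, 122.6 and 122.0 CPM in PGK and at 99.0, 94.6 and 103.8 CPM in CAG. The CAG libraries all lay lower, with a log2 fold change of -0.29 (SE 0.05). SLC7A6 overlaps SLC7A6OS on the other strand. Whether the counting used strand is not stated in these sources, so reads of the pair may not be fully separated. SLC7A6OS was at 30.3 CPM in PGK and 30.6 in CAG. Its heavy-chain partner SLC3A2, which is no member, went the other way, from 184.7 ± 5.36 to 234.9 CPM with a log2 fold change of 0.35 (SE 0.05, adjusted p = 5.32e-06 in the edgeR test).

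Summed per kilobase of exon, which allows levels of different genes to be added, SLC7A1 to SLC7A3 reached 27.2, 29.5 and 26.7 CPM per kilobase in the PGK libraries and 41.95, 42.4 and 44.4 in the CAG libraries. The sum was 1.54 times as high in CAG, and most of the difference of 15.1 came from SLC7A1, whose own level per kilobase was higher by 15.7. The makeup also differed. SLC7A1 made up 62.5 ± 1.96% of the sum in PGK and 77.0 ± 0.515% in CAG (SD, n = 3). The share of SLC7A2 was 37.4 ± 1.89% in PGK and 18.2 ± 0.525% in CAG, and SLC7A3 went from 0.0448% to 4.80 ± 0.425%. The remaining genes of this group, SLC7A4, SLC7A7 and SLC7A14, did not reach the count filter, and SLC7A4 and SLC7A14 had 0 counts in all 6 libraries. SLC7A7 had 1 count in PGK and 10 in CAG, and without the filter 1 of these 3 genes was called higher.

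**Figure D2:**
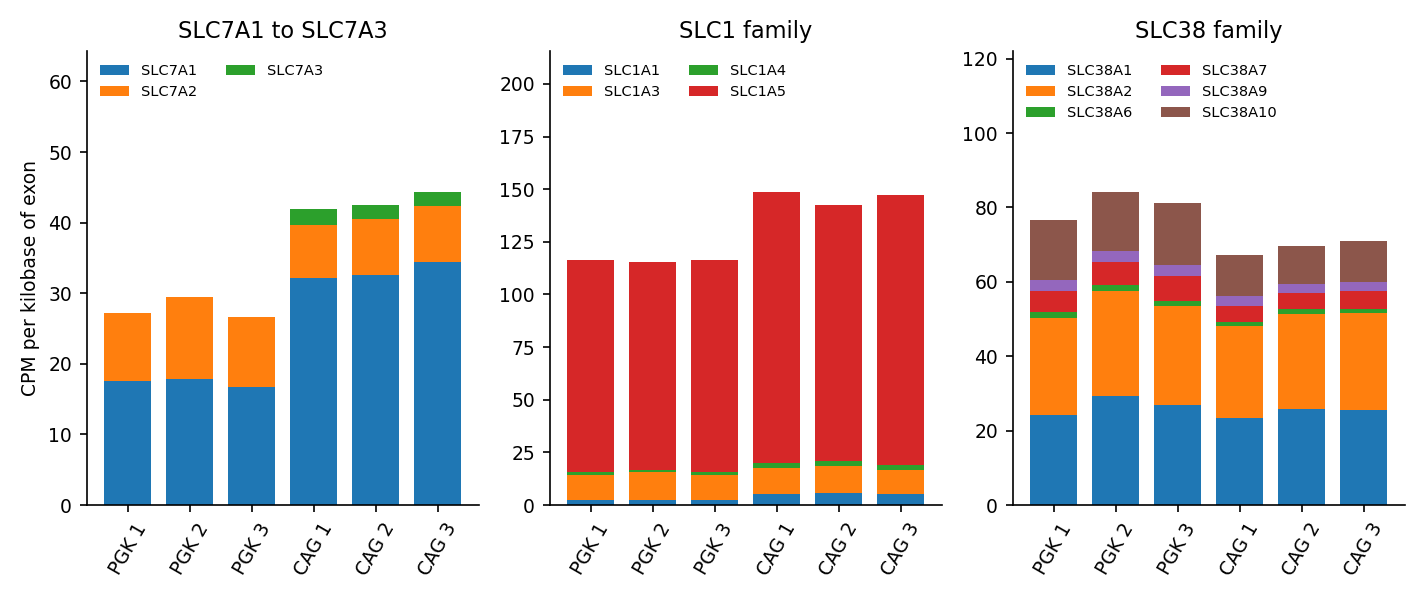
Stacked levels per library in CPM per kilobase of exon, for SLC7A1 to SLC7A3 and for the SLC1 and SLC38 families, showing genes with over 1% of the family's sum in a line. The cationic sum is 26.7 to 29.5 in PGK and 41.95 to 44.4 in CAG, SLC1A5 makes up 86.2% of the SLC1 sum in PGK and 86.4% in CAG, and the SLC38 sum is lower in CAG.

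Both neutral exchangers were higher in the CAG line. SLC1A4 (ENSG00000115902, chromosome 2), which encodes ASCT1, a serine, alanine and cysteine exchanger, was at 8.66, 8.05 and 9.29 CPM in PGK and at 16.8, 15.5 and 15.8 CPM in CAG. The groups did not overlap, and the log2 fold change was 0.88 (SE 0.08), or 1.85-fold. SLC1A5 (ENSG00000105281, chromosome 19), which encodes the glutamine exchanger ASCT2, was at 336.4, 328.4 and 335.4 CPM in PGK and at 429.6, 405.4 and 426.8 CPM in CAG. All 3 CAG libraries lay higher, by a log2 fold change of 0.34 (SE 0.04), or 1.26-fold. Without the strand setting, part of the SLC1A5 counts is uncertain too, since they may hold reads from the other strand.

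SLC1A3 (ENSG00000079215, chromosome 5), the glutamate transporter also called EAAT1, did not differ beyond the spread of the libraries. It was at 73.7, 80.5 and 74.9 CPM in PGK and at 77.7, 80.6 and 72.4 CPM in CAG, and the CAG values reached both below and above those of PGK. The log2 fold change was 0.01 (SE 0.06), and the ratio of counts was 1.01 with a counting interval of 0.968 to 1.05. Its relative SLC1A1, a glutamate and cysteine transporter outside the 10 genes, was higher in CAG, at 21.3 CPM against 10.2 ± 0.524 (log2 fold change 1.06, SE 0.08, adjusted p = 2.12e-09 in the edgeR test). SLC1A2, SLC1A6 and SLC1A7 did not reach the filter. The SLC1 sum per kilobase was 1.26 times as high in CAG, and SLC1A5 held 86.2 ± 0.564% of it in PGK and 86.4 ± 0.882% in CAG.

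Of the SLC38 members, 0 were called: SLC38A1 and SLC38A2 were tested and SLC38A5 had too few counts. SLC38A1 (ENSG00000111371, chromosome 12) was at 242.1, 293.7 and 269.0 CPM in PGK and at 235.3, 258.6 and 255.8 CPM in CAG. The ranges overlapped, with a log2 fold change of -0.10 (SE 0.06), and PGK replicate 1 was the lowest of its line. Without that library the log2 fold change was -0.17 and SLC38A1 was called lower, and without PGK replicate 2 it was -0.0348 and not called. SLC38A2 (ENSG00000134294), its neighbour on chromosome 12 and a carrier known to be induced by amino acid shortage, was at 172.4, 185.9 and 176.3 CPM in PGK and at 162.0, 167.7 and 171.6 CPM in CAG. The CAG libraries all lay just below those of PGK, but the gene was not called, with a log2 fold change of -0.09 (SE 0.05). Without PGK replicate 1 it was -0.12 and SLC38A2 was called lower. With the replicate number as a block in the edgeR fit, SLC38A1 (-0.0998) and SLC38A2 (-0.0926) were both called lower. The numbers were not taken to pair the samples. SLC38A5 (ENSG00000017483, X chromosome), a glutamine, asparagine and histidine carrier, had 4, 3 and 5 counts in PGK and 10, 7 and 3 in CAG. The ratio of counts was 1.58 with a counting interval of 0.738 to 3.56, so a difference was not detectable at this depth.

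Of 4 other tested SLC38 genes 3 were called lower and 0 higher (edgeR, adjusted p under 0.05), with a median log2 fold change of -0.37. Over all tested genes 30.4% were lower and 31.6% higher. SLC38A4, SLC38A8 and SLC38A11 did not reach the filter, at 16, 1 and 0 counts in PGK and 17, 9 and 0 in CAG. SLC38A10 went from 125.3 ± 3.57 to 83.0 CPM (log2 fold change -0.59, SE 0.05) and SLC38A7, a lysosomal glutamine exporter, from 43.3 ± 3.51 to 31.6 CPM (-0.46, SE 0.07). SLC38A9, the lysosomal arginine sensor, changed by -0.28 (SE 0.07), and SLC38A6 had a log2 fold change of -0.28 (SE 0.12) without being called. The family sum per kilobase was 76.8, 84.3 and 81.4 in the PGK libraries and 67.4, 69.8 and 71.2 in the CAG libraries, or 0.859 times as high in CAG. Of the difference of -11.4, SLC38A10 held -5.47, SLC38A1 -1.84, SLC38A2 -1.68 and SLC38A7 -1.68. With the longest transcript as the length the difference was -18.7. Of this SLC38A10 held -9.82, SLC38A7 -2.58, SLC38A1 -2.28 and SLC38A2 -2.27.

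By level per kilobase, SLC1A5 ranked first in both lines, at 100.1 ± 1.31 in PGK and 126.2 ± 3.98 in CAG (SD, n = 3). In PGK it was followed by SLC38A2 at 27.0 ± 1.06 and SLC38A1 at 26.8 ± 2.58, whose ranges overlapped, then by SLC7A1, SLC7A6, SLC1A3 and SLC7A2, which went down from 17.4 ± 0.629 to 10.4 ± 1.03. SLC1A4 was at 1.249 ± 0.0896, and SLC38A5 and SLC7A3 came last with overlapping ranges. In CAG, SLC7A1 came second at 33.1 ± 1.22, above SLC38A2 at 25.3 ± 0.736 and SLC38A1 at 24.9 ± 1.27. SLC7A6 and SLC1A3 overlapped in CAG, at 13.1 and 12.3, and SLC7A3, at 2.06 ± 0.162, lay next to SLC1A4 at 2.31 ± 0.0968. With the longest transcript in place of all exons as the length, SLC7A1, SLC7A6 and SLC1A3 in PGK came to 18.2, 19.2 and 18.3, so their order in PGK depends on the length used. In CAG the same length put SLC7A1 at 34.6 ± 1.27 and SLC38A2 at 34.2 ± 0.995, with overlapping ranges, and SLC1A3 at 18.4 above SLC7A6 at 15.7.

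Several members lay in stretches of a chromosome whose genes differed together. The counts of neighbours called are to be read beside 31.6% higher and 30.4% lower among all tested genes. SLC7A1 lies on chromosome 13 among genes of which 40 of the nearest 50 tested were called higher and 1 lower, with a median log2 fold change of 0.50. Its own 0.93 was exceeded by 10 of the 50. Its immediate tested neighbours SLC46A3 (-0.12, SE 0.11) and UBL3 (0.09, SE 0.06) were not called. Around SLC1A5 on chromosome 19, 37 of 50 were higher and 2 lower, with a median of 0.50, and 31 of the 50 had a larger log2 fold change than its 0.34. The part of these surroundings in the difference of either gene was not tested.

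SLC1A4 and SLC7A3 had larger log2 fold changes than all 50 of their neighbours. The 50 neighbours of SLC1A4 had a median of -0.10, and 0 of them reached its 0.88. Around SLC7A3 the median was 0.18, and 0 neighbours exceeded its own value. Of these 50 neighbours 26 were higher and 6 lower, against 31.6% and 30.4% of all tested genes. DLG3, on one side, was at 0.17 (SE 0.06), and SNX12, on the other, at 0.02 (SE 0.05). The neighbours of SLC7A2 and SLC7A6 had medians of -0.02 and -0.05, and 43 and 42 of the 50 had a larger log2 fold change than the member. For SLC38A1 and SLC38A2, which lie next to each other, the medians were both 0.03, and for SLC1A3 the median was -0.13.

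**Figure D3:**
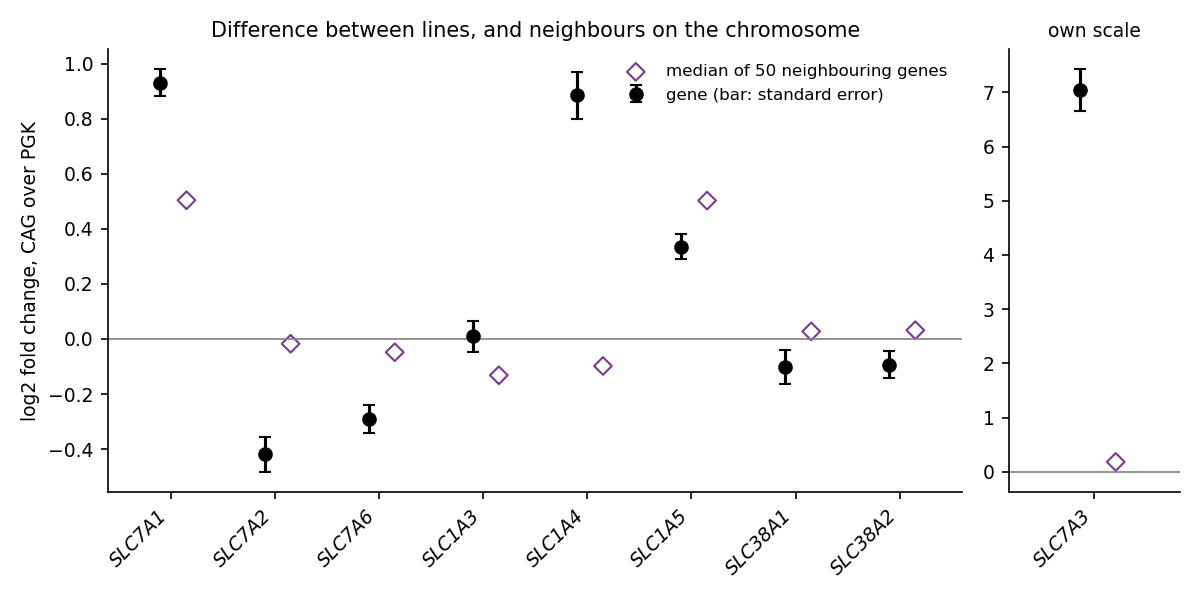
Log2 fold change of each tested transporter gene, CAG over PGK, with its standard error (filled), and the median of its 50 neighbouring tested genes (open diamonds), with SLC7A3 on a scale of its own. SLC7A1 and SLC1A5 lie in surroundings with a median of 0.50, while SLC1A4 at 0.88 lies among genes with a median of -0.10.

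Other amino acid transporters were called in both directions, beside 31.6% higher and 30.4% lower among all tested genes. All 4 tested non-members among SLC7 light chains and SLC3 heavy chains were called higher, with a median log2 fold change of 0.43. Another 5 of this list did not reach the count filter. The list was made with earlier results of these lines known, so its direction is no independent evidence. Of the 4, the cystine transporter SLC7A11 had the largest log2 fold change, 3.16 (SE 0.07), among neighbours with a median of 0.40. SLC7A8, a carrier of small and large neutral amino acids, followed at 0.52 (SE 0.09). SLC7A5, the leucine transporter LAT1, went from 303.5 ± 2.72 to 330.3 CPM (0.12, SE 0.05). In a list of 13 further tested transporters of the plasma membrane and lysosome, 2 were higher, 5 lower and 6 not called. The glycine transporter SLC6A9 rose by 0.62 (SE 0.08) and SLC6A15, a branched-chain amino acid carrier, by 0.29 (SE 0.05). The leucine carrier SLC43A1 fell by 1.09 (SE 0.08), from 24.7 ± 1.48 to 11.6 CPM. The lysosomal exporters SLC36A1 and SLC66A1, the latter a carrier of cationic amino acids, changed by -0.66 (SE 0.06) and -0.60 (SE 0.08), in surroundings with medians of -0.42 and -0.63. Of 10 tested mitochondrial carriers 3 were higher, 2 lower and 5 not called. The ornithine carrier SLC25A15, which lies on chromosome 13 like SLC7A1, rose by 0.67 (SE 0.08) in surroundings with a median of 0.54, and SFXN2, a mitochondrial sideroflexin, changed by -0.40 (SE 0.06) where the median was -0.22.

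Enzymes that use arginine and ornithine were called in both directions. Of 21 tested genes of arginine, ornithine and polyamine metabolism 7 were higher (33.3%) and 9 lower (42.9%), with a median of -0.07. The shares over all tested genes were 31.6% and 30.4%. AGMAT, annotated as an agmatinase, had 3 counts in PGK and 185 in CAG, so its level was 58.6 times as high (counting interval 19.8 to 286.9), while the median of its surroundings on chromosome 1 was -0.61. The AGMAT ratio was 119.1 (21.1 to 4731) without PGK replicate 1 and 38.5 (12.98 to 188.5) without PGK replicate 3. The polyamine acetyltransferase SAT1 rose by 1.04 (SE 0.08), in surroundings with a median of 0.23. Spermidine synthase (SRM) changed by -0.68 (SE 0.05), in surroundings with a median of -0.60, and the polyamine oxidase PAOX by -0.67 (SE 0.13), where the median was -0.29. ODC1, which makes putrescine from ornithine, was higher by 0.19 (SE 0.05), and arginase ARG2 and the argininosuccinate synthase ASS1 were lower, at -0.46 (SE 0.06) and -0.54 (SE 0.07).

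Of 22 tested genes of glutamine, glutamate, proline and asparagine metabolism 7 were higher and 11 lower, with a median of -0.15. Among all tested genes 31.6% were higher and 30.4% lower. Glutamine synthetase (GLUL) changed by -0.55 (SE 0.05), from 445.7 ± 17.2 to 303.5 CPM, and the median around it was -0.36. The low-level glutaminase GLS2 rose by 1.05 (SE 0.21), from 1.22 to 2.52 CPM. Asparagine synthetase (ASNS) rose by 0.69 (SE 0.05), and the proline pathway genes PYCR3 and ALDH4A1 changed by -0.76 (SE 0.06) and -0.75 (SE 0.06). In serine, glycine and folate metabolism, 8 of 16 were higher and 5 lower, to be read beside the same shares of all tested genes. Those higher were led by the mitochondrial ALDH1L2 at 1.81 (SE 0.09) and MTHFD2L at 0.47 (SE 0.12). The serine hydroxymethyltransferase SHMT1 changed by -0.53 (SE 0.05). PYCR3 and ALDH4A1 lay in surroundings with medians of -0.44 and -0.61, and MTHFD2L in surroundings with a median of 0.43.

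Among 18 tested genes of the response to amino acid shortage, 12 were higher, 1 lower and 5 not called, with a median of 0.46. Over all tested genes 31.6% were higher and 30.4% lower. ATF4 itself rose by 0.50 (SE 0.04), from 516.1 ± 3.99 to 729.1 CPM. CHAC1, which degrades glutathione, rose by 1.06 (SE 0.18) to 3.12 CPM in CAG, and the transcription factor CEBPG by 0.84 (SE 0.05), in surroundings with a median of 0.55. The stress factor DDIT3 was the gene called lower, at -0.44 (SE 0.11). Of the 18 genes of this list with a promoter window 5 held the letters TGATGNAA: ATF3, CEBPG, CHAC1, ASNS and JDP2. ATF4, CHAC1 and DDIT3 were known from earlier results of these lines when the list was made, so its direction is no independent evidence.

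Of 37 genes through which mTORC1, the growth-controlling kinase complex, senses amino acids 14 were higher and 9 lower, with a median of 0.09. The shares were 37.8% and 24.3%, against 31.6% and 30.4% of all tested genes. SESN2, a leucine sensor, rose by 0.54 (SE 0.06) and FNIP2, a partner of folliculin, by 0.54 (SE 0.06), in surroundings with medians of 0.27 and 0.44. MTOR changed by -0.77 (SE 0.06) and the leucyl-tRNA synthetase LARS1 by -0.57 (SE 0.05), in surroundings with medians of -0.60 and -0.35. Of 16 genes for ubiquitin ligation and endocytosis of transporters 3 were higher, 4 lower and 9 not called. ARRDC3, an arrestin-like adaptor, rose by 0.38 (SE 0.11) and the caveolin CAV1 by 0.27 (SE 0.10). The adaptors NDFIP1 and ARRDC2 changed by -0.53 (SE 0.05) and -0.51 (SE 0.09), in surroundings with medians of -0.33 and -0.55. CAV1 was no longer called with DESeq2 (adjusted p = 0.0929), nor in edgeR when PGK replicate 3 (0.0786), CAG replicate 1 (0.0799) or CAG replicate 3 (0.123) was left out, where the value in brackets is the adjusted p.

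**Figure D4:**
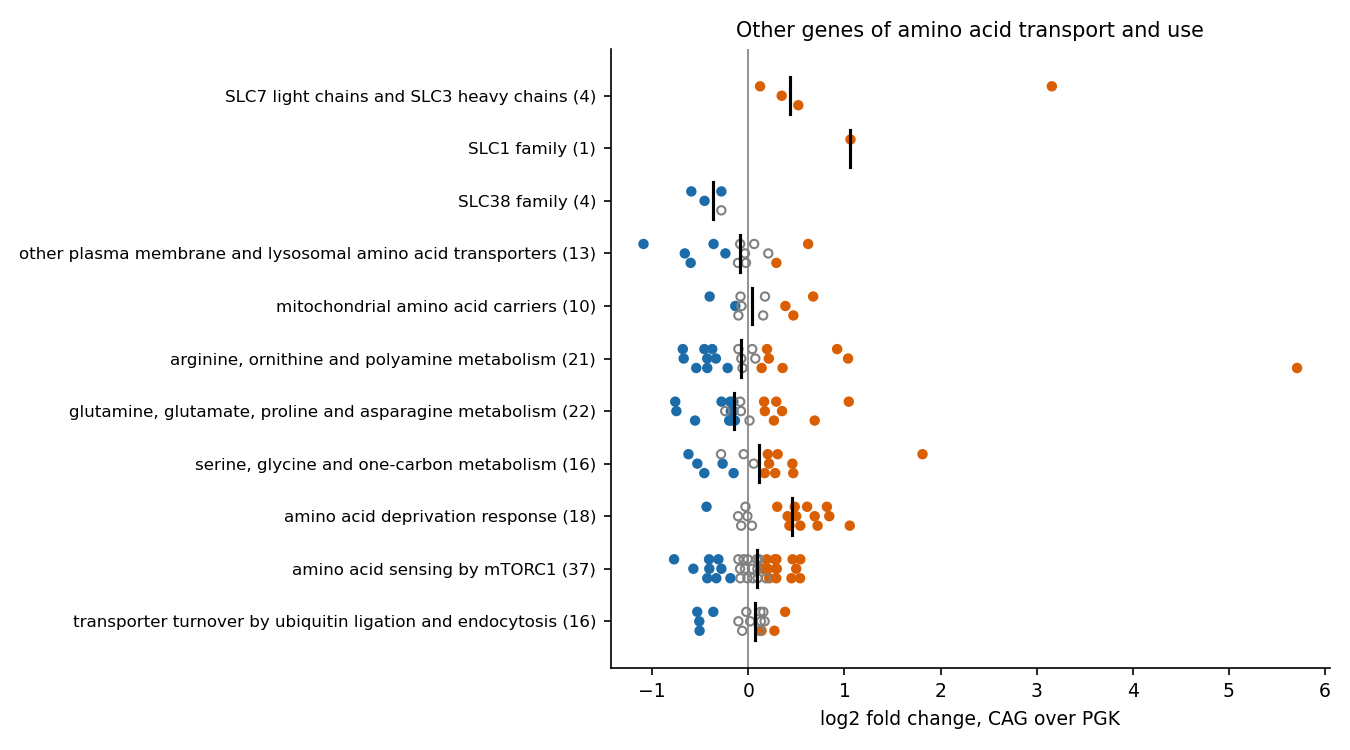
Log2 fold change, CAG over PGK, of tested genes in each list of amino acid transport and use, without the 10 members and with the number of genes in brackets. Filled points were called (orange higher, blue lower), open grey points were not, and black bars mark medians, which run from -0.37 in the SLC38 family to 1.06 for the single tested SLC1 gene.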

How the data were processed

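The authors deposited read counts per Ensembl gene for 6 libraries, not normalized and not pooled. The build hg19 and the tools featureCounts 2.0.3, HISAT2 2.2.1, Bowtie2 2.5.1 and cutadapt 4.6 are named in the submitters' processing notes. Their roles, the annotation and whether strand was used in counting are not stated there. Per the labels' protocols, directional libraries were made after polyA selection.

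Each of the 6 count columns carried the label of 1 sample, and 0 were left over. Symbols, gene order, overlaps and exon lengths came from GENCODE 29, which named 19346 of 20169 rows, and promoter sequences from RefSeq (GRCh38.p14). Gene coordinates are not given because these builds differ from hg19. Counts were filtered with filterByExpr, scaled by TMM and tested by quasi-likelihood (edgeR 4.0.16, R 4.3.3, robust, two-sided, common biological coefficient of variation 0.0494), with Benjamini-Hochberg adjustment over 13103 genes. Standard errors were taken as the absolute log2 fold change divided by the square root of the F statistic. The alternatives were other filters and scalings, DESeq2 1.42.0, limma-voom (limma 3.58.1), a replicate block, other lengths and windows, and leaving out each library. The analysis was tested on simulated counts.

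The members and lists were chosen with earlier results of these data known. Named genes were the members, in each list the up to 2 called non-members with the largest change in each direction and at least 1 CPM in the higher line, SLC3A2, SLC7A11, ATF4 and the direct neighbours of members. SLC7A5, SLC38A6, SLC38A9, SLC66A1, ODC1, ARG2, ASS1 and GLUL, and genes named for a motif, an overlap or a count of 0, were chosen after their values were seen. The rule also meets genes that are not reported here. Of the rest, SFXN1 and SFXN3, which are not described above, changed by -0.14 (SE 0.04) and 0.47 (SE 0.09). SFXN1 was no longer called in edgeR without CAG replicate 2 (adjusted p = 0.0625).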

Additional observations from a re-analysis of the deposited data

How the results depend on the processing

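Each of the 6 called members kept its direction and its call under all 13 alternatives run. The number of genes called higher in CAG ran from 3764 to 4491 and the number called lower from 3503 to 4400. With library size only, 4491 were higher and 3509 lower, and the median of all tested genes was 0.03. SLC1A3 changed sign near 0, at -0.0169 without PGK replicate 1, -0.0065 without PGK replicate 3, -0.002 without CAG replicate 1 and -0.0259 without CAG replicate 2. Leaving out each library in turn gave -0.0259 to 0.0509. SLC38A1 became called lower without PGK replicate 1, at -0.1732 (adjusted p = 0.00629 in edgeR; 0.00629 to 0.612 over all alternatives), and leaving out each library in turn gave -0.1732 to -0.0348. SLC38A2 also became called without PGK replicate 1, at -0.1181 (adjusted p = 0.0441 in edgeR; 0.0248 to 0.3 over all alternatives). Its log2 fold change ran from -0.1181 to -0.0634 over the libraries left out and was -0.0598 with library size only. The fitted log2 fold change of SLC7A3, which depends on the prior count, ran from 6.51 to 9.74.

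Deviations from the line mean of libraries with the same number correlated at 0.108, 0.103 and 0.0131 across genes, so the numbers were not taken to pair the samples, although 6 of 6 libraries correlated best with their own number. With a replicate block SLC38A1 (-0.0998, adjusted p = 0.0153) and SLC38A2 (-0.0926, adjusted p = 0.0248) became called in edgeR, and 4461 genes were higher and 4400 lower. The block also moved the mitochondrial carriers called higher from 3 to 5, the shortage response genes called lower from 1 to 2 and the turnover genes called higher from 3 to 5.

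Values near 0 of neighbouring genes reversed sign. NIPBL was at 0.0027 with the stricter filter of 1 CPM in 3 libraries, 0.0299 with library size only, 0.0003 with limma-voom and -0.0878 to 0.0852 over the libraries left out. SLC7A6OS ran from -0.0155 to 0.0692 and SNX12 from -0.0071 to 0.0641 over the libraries left out. Without PGK replicate 1 mitochondrial carriers called higher went to 5, and without CAG replicate 2 those called lower to 1. Turnover genes called higher numbered 5 with library size only and 1 without CAG replicate 3. With 10 neighbours on each side the medians around SLC7A2, SLC38A1 and SLC38A2 changed sign, to 0.04, -0.08 and -0.08. The cause of these changes was not tested.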
